A study of Mus musculus with 6 samples.

Results

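The Grainyhead and CP2 transcription factor genes of the mouse are *Grhl1*, *Grhl2* and *Grhl3* of the Grainyhead branch and *Tfcp2*, *Tfcp2l1* and *Ubp1* of the CP2 branch. They were taken by family name and read from a raw count table of bulk RNA-seq by Ensembl identifier. All 6 were among the 55536 genes of the table, and all 6 were among the 20622 that passed the low-count filter. The family was chosen by the counts of *Tfcp2l1*, which were higher in the knockout in these libraries, so its difference between the groups is given as a description with no test, while the 5 paralogs entered by name and keep theirs.

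The libraries came from basal keratinocytes of mouse dorsal skin at E16.5, sorted as cells positive for Epcam and α6 integrin, with 3 Ctrl and 3 TKO samples. Ctrl embryos were Suv39h1 f/f, Suv39h2-/-, Setdb1 f/f and lacked K14CreERT2. TKO embryos had the same alleles with K14CreERT2, a recombinase that is driven by the keratin 14 promoter in basal keratinocytes and works once tamoxifen is given, and embryos of both groups received tamoxifen. Ctrl therefore also lacked functional *Suv39h2*, and the comparison shows the loss of *Suv39h1* and *Setdb1* on that background, in litters that the study lists as mosaic. *Suv39h1*, *Suv39h2* and *Setdb1* encode methyltransferases that place the repressive histone mark H3K9me3.

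Ctrl replicates 1, 2 and 3 held 102159175, 136515436 and 104422632 counts in total. TKO replicates 1, 2 and 3 held 116308383, 108957256 and 118413082. Levels are given in CPM, counts scaled to library size, after TMM scaling, which corrects each library's size for differences in composition, and 3 counts correspond to between 0.0232 and 0.0303 CPM. Ctrl replicate 1 and TKO replicate 2 carry the letter F in their library names and the others M. The study describes its replicates as biological, and the labels do not name the embryo or litter of each library.

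The labels were checked first. *Setdb1* had 125.5, 117.9 and 121.1 CPM in Ctrl replicates 1, 2 and 3 and 95.3, 62.3 and 74.9 CPM in TKO replicates 1, 2 and 3. The TKO libraries were all below the Ctrl libraries, with a log2 fold change of -0.65 (SE 0.16) and an adjusted p of 0.286 by edgeR and 0.0449 by DESeq2. *Suv39h1* (Ctrl mean 83.7 ± 5.10 CPM, TKO mean 78.0 ± 10.5 CPM, SD, n = 3) and *Suv39h2* (16.2 ± 0.784 and 17.5 ± 1.46 CPM) overlapped between the groups. The counts cover whole genes, so reads from a transcript that lacks a deleted exon remain in them. The markers of the sort were present in each library, with *Epcam* between 72.9 and 97.4 CPM and *Itga6* between 461.5 and 582.8 CPM. In a principal component analysis TKO replicate 3 stood apart on the first component (29.1% of the variance), at 98.1 against a range of -45.2 to 9.45 for the others. On the second component (25.3%) the groups were apart, with Ctrl between 32.7 and 57.9 and TKO between -64.5 and -29.1.

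Grainyhead and CP2 proteins share a related DNA-binding domain and bind DNA as dimers or larger complexes. The Grainyhead factors are regulators of surface epithelia, where they control junction genes, barrier formation and wound closure, and they bind variants of the palindrome AACCGGTT. The CP2 factors bind a repeated CCAG-like element and are expressed in many tissues, except for *Tfcp2l1*, which is best known from naive embryonic stem cells, where it supports self-renewal, and from the ducts of kidney and salivary gland.

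The promoters of the CP2 branch are shown because they are where *Tfcp2l1* could be compared with its paralogs outside the counts. Of the members, 5 had entries in the RefSeq promoter table (build GRCm38.p6), with 7 entries in all, and *Grhl2* had none. The 250 bases before the start site are printed 5′ to 3′ on the strand of the gene, with each CpG in capitals, at chr1:118627695-118627944 (plus strand) for *Tfcp2l1*, chr15:100552009-100552258 (minus strand) for *Tfcp2* and chr9:113930898-113931147 (plus strand) for the first of 2 entries of *Ubp1*.
Tfcp2l1: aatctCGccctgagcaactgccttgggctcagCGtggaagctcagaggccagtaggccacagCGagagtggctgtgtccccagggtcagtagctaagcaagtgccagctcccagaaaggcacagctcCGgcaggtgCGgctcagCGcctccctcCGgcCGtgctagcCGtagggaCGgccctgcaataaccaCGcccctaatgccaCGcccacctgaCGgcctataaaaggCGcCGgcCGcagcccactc
Tfcp2: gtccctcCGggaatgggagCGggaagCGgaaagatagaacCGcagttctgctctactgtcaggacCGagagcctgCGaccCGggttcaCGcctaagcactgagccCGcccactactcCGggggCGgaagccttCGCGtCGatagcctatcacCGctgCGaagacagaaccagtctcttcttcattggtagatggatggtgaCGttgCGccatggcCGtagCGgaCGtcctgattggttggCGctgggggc
Ubp1: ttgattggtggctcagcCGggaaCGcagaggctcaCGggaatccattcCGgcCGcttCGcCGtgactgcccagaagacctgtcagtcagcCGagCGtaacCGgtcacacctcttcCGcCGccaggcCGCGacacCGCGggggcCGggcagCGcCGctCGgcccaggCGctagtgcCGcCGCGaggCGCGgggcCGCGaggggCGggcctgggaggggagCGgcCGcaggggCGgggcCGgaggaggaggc
The printed stretches hold 16 CpGs for *Tfcp2l1*, 22 for *Tfcp2* and 33 for *Ubp1*. Over 300 bases, which add 50 after the start, the ratio of observed to expected CpGs was 0.656 for *Tfcp2l1*, 1.02 for *Tfcp2* and 1.01 for this entry of *Ubp1*. The median of all 32851 promoters was 0.384, so *Tfcp2l1* lay at percentile 67.9, *Tfcp2* at 95 and *Ubp1* at 94.4. Members of the Grainyhead branch lay on both sides of *Tfcp2l1*. *Grhl3* had a ratio of 0.492 (percentile 57.6), one *Grhl1* entry 0.865 (percentile 84.5) and the other 0.0 (percentile 0.0). The *Tfcp2l1* promoter also holds the letters TATAAA, starting 28 bases before the start site. Of all promoters, 2.22% hold these letters on the gene's strand wholly within 45 to 11 bases before the start, and none of the other 6 member entries does. The letters AACCGGTT, searched on both strands, are in 0.146% of promoters, AACNGGTT, which includes the former, in 2.09%, and the CP2 pair of CCAG words, 6 bases apart, in 3.44%, and none of these is in a member's entry.

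*Tfcp2l1* (ENSMUSG00000026380, chromosome 1, 118555636 to 118612915, plus strand, GENCODE vM39 on GRCm39) had 29.4, 29.2 and 48.2 CPM in Ctrl replicates 1, 2 and 3, from 2914, 3768 and 5190 counts. It had 84.7, 94.6 and 85.3 CPM in TKO replicates 1, 2 and 3, from 9962, 10444 and 10376 counts. The groups did not overlap, as in 11.5% of all tested genes (6.35% higher and 5.11% lower in TKO), and the lowest TKO library was well above Ctrl replicate 3, the highest of its group. The Ctrl mean was 35.6 ± 10.9 CPM and the TKO mean 88.2 ± 5.55 CPM (SD, n = 3). TKO over Ctrl was 2.48-fold, or 1.31 (SE 0.20) on the log2 scale. Ctrl was the more variable group, with a coefficient of variation of 30.6% against 6.29% in TKO, and without Ctrl replicate 3 the log2 fold change was 1.59. In a bulk sample, more cells that express a gene and more RNA per cell cannot be told apart. The counting program and its strand setting were not stated, and *Tfcp2l1* is overlapped by 4 predicted genes on the other strand and by Gm23497 on its own, which could share reads with it.

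For scale, 3557 tested genes had a mean level of at least the 61.9 CPM of *Tfcp2l1*, and 9 of them had a larger log2 fold change. They were named after their values were seen. They include the mitochondrial rRNA genes *mt-Rnr1* and *mt-Rnr2* (2.69 and 2.58), in libraries depleted of rRNA. Others are *Kyat3* (2.11), a kynurenine aminotransferase, *Sulf2* (1.70), a sulfatase of heparan sulfate, and *Ccng1* (1.46) and *Trp53inp1* (1.44), known targets of p53. The rest are *Mir6236* (2.615), *Lars2* (1.66) and a gene that is not in GENCODE vM39 (1.64). At that level or above, 15 genes had a log2 fold change above 1 and 2 had one below -1.

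**Figure D1:**
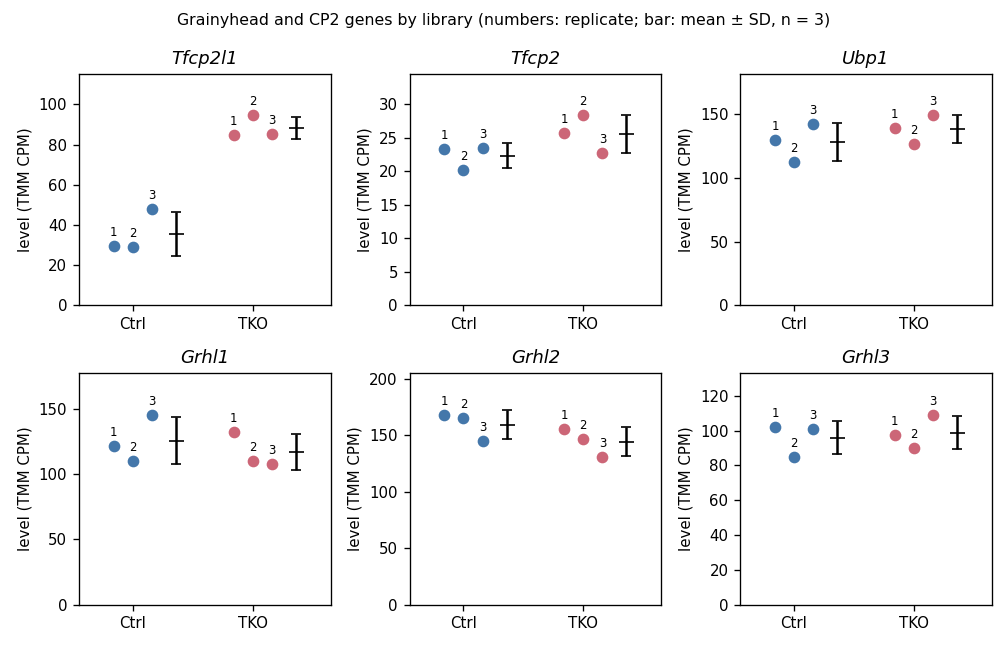
Level of each member (y axis, TMM-scaled CPM, starting at 0) in the 3 Ctrl (blue) and 3 TKO (red) libraries, numbered by replicate, with the mean ± SD in black. *Tfcp2l1* sits between 29.2 and 48.2 CPM in Ctrl and between 84.7 and 94.6 CPM in TKO, while each of the other panels has overlapping groups.

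The 5 paralogs overlapped between the groups. None was called by the rule used throughout (edgeR quasi-likelihood test, Benjamini-Hochberg adjusted p under 0.05 with a log2 fold change beyond 1 in either direction), none had an unadjusted p under 0.05, and DESeq2 called none. Over all tested genes the rule called 27 higher (0.131%) and 0 lower (0.0%) in TKO, with between 7 and 65 higher and between 0 and 16 lower when 1 library was left out, and the 65 and 16 came without TKO replicate 3 and the 7 without Ctrl replicate 2. At an unadjusted p under 0.05, 837 genes were higher (4.06%) and 416 lower (2.02%), 6.08% together. DESeq2 called 193 higher (0.936%) and 21 lower (0.102%). With so few calls, an uncalled paralog says little by itself, and the intervals below give what these libraries could still hold.

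*Tfcp2*, also known as LSF or CP2, is a paralog of *Tfcp2l1* in the CP2 branch and a widely expressed factor linked to globin genes and to thymidylate synthase. It lies on chromosome 15 (100395893 to 100449917, minus strand) and overlaps no other annotated gene. It had 23.3, 20.1 and 23.5 CPM in Ctrl and 25.7, 28.4 and 22.7 CPM in TKO replicates 1, 2 and 3. TKO replicate 3 was within the Ctrl range and the other TKO libraries were above it. The log2 fold change was 0.20 (SE 0.15, 95% interval -0.14 to 0.54, edgeR adjusted p = 0.9998), which allows a change of between -9.41% and 45.2%. It was 0.12 without TKO replicate 2 and 0.13 without Ctrl replicate 2.

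*Ubp1*, the remaining CP2 gene, is known for a role in placental blood vessels. It lies on chromosome 9 (113760002 to 113807094, plus strand), where *Fbxl2* and 2 predicted genes overlap it on the other strand. It had 130.0, 112.8 and 142.5 CPM in Ctrl and 139.5, 126.8 and 149.2 CPM in TKO replicates 1, 2 and 3. In both groups replicate 2 was the lowest and replicate 3 the highest. The log2 fold change was 0.11 (SE 0.14, 95% interval -0.20 to 0.41, edgeR adjusted p = 0.9998), and leaving out 1 library gave between 0.022 without Ctrl replicate 2 and 0.19 without Ctrl replicate 3, with 0.052 without TKO replicate 3 and 0.17 without TKO replicate 2.

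Ratios of raw counts within a library do not depend on how libraries are scaled. *Tfcp2l1* had 1.26, 1.45 and 2.05 counts for each count of *Tfcp2* in Ctrl and 3.30, 3.34 and 3.75 in TKO replicates 1, 2 and 3. Its ratio to *Ubp1* was 0.226, 0.259 and 0.338 in Ctrl and 0.607, 0.746 and 0.572 in TKO. Its ratio to *Grhl2* was 0.175, 0.177 and 0.333 in Ctrl and 0.544, 0.645 and 0.653 in TKO. These ratios restate the difference for which *Tfcp2l1* was chosen and are no further support for it. Of the ratios without it, *Grhl3* over *Grhl2* was 0.514 to 0.697 in Ctrl and 0.613 to 0.835 in TKO, and *Grhl1* over *Grhl2* was 0.665 to 1.01 and 0.752 to 0.853.

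The Grainyhead genes also overlapped between the groups. *Grhl1*, which is needed for hair anchoring and controls desmosomal cadherins, lies on chromosome 12 (24622197 to 24669816, plus strand) and had 122.1, 109.9 and 145.8 CPM in Ctrl and 132.8, 110.2 and 108.1 CPM in TKO replicates 1, 2 and 3. Only TKO replicate 3 was outside the Ctrl range, just below it. The log2 fold change was -0.11 (SE 0.15, 95% interval -0.44 to 0.23, edgeR adjusted p = 0.9998), and it was 0.01 without Ctrl replicate 3.

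*Grhl2*, a regulator of E-cadherin and claudin genes in simple and surface epithelia, lies on chromosome 15 (37233280 to 37363813, plus strand), with *Ncald* and 4 predicted genes on the other strand. It had 168.0, 165.1 and 144.6 CPM in Ctrl and 155.7, 146.5 and 130.7 CPM in TKO replicates 1, 2 and 3. Replicate 3 was the lowest of each group. The log2 fold change was -0.14 (SE 0.13, 95% interval -0.43 to 0.15, edgeR adjusted p = 0.9998), and leaving out 1 library gave between -0.21 and -0.076, the latter without TKO replicate 3.

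*Grhl3*, required for the skin barrier and for neural tube closure, lies on chromosome 4 (135268329 to 135300992, minus strand), with 2 predicted genes on the other strand. It had 102.1, 84.9 and 100.8 CPM in Ctrl and 97.7, 89.9 and 109.1 CPM in TKO replicates 1, 2 and 3. TKO replicate 3 was the highest of all and the other TKO libraries fell within the Ctrl range. The log2 fold change was 0.04 (SE 0.13, 95% interval -0.26 to 0.35, edgeR adjusted p = 0.9998), and it was -0.04 without Ctrl replicate 2 and -0.03 without TKO replicate 3.

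**Figure D2:**
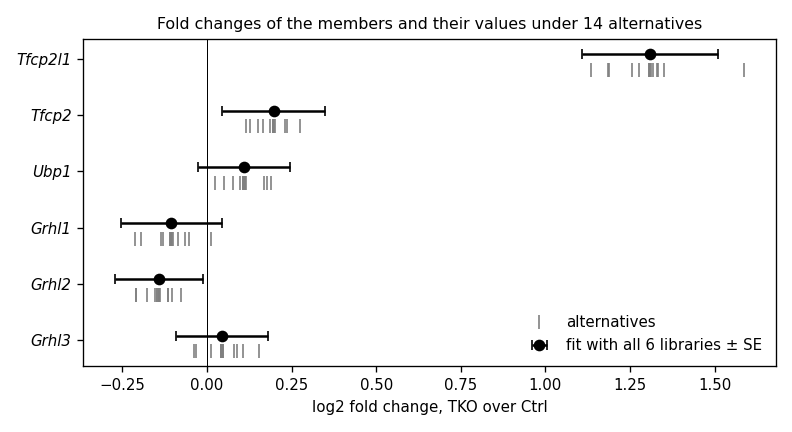
Log2 fold change of each member, TKO over Ctrl (x axis), as a black point ± SE from the fit with all 6 libraries and as grey ticks for 14 alternatives, including each library left out. *Tfcp2l1* stays between 1.14 and 1.59, and the ticks of *Grhl1* and *Grhl3* lie on both sides of 0.

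Levels of different genes were compared per length, as CPM for each kilobase of the union of a gene's exons. In Ctrl the order was *Grhl3* (25.8 ± 2.58 CPM per kb, SD, n = 3), *Ubp1* (19.4 ± 2.26), *Grhl2* (18.5 ± 1.48), *Grhl1* (8.01 ± 1.16), *Tfcp2l1* (3.75 ± 1.15) and *Tfcp2* (1.92 ± 0.162). *Ubp1* and *Grhl2* overlapped, and the other neighbours in this order did not. In TKO *Tfcp2l1*, at 9.28 ± 0.584 CPM per kb, lay above *Grhl1* at 7.45 ± 0.870 CPM per kb, and no neighbours overlapped. With the longest transcript as length, *Tfcp2l1* was the lowest in Ctrl (3.82 CPM per kb), overlapping *Tfcp2* (4.52 CPM per kb), and in TKO it lay below *Grhl1* (13.9 CPM per kb) and above *Tfcp2* (5.19 CPM per kb).

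*Tfcp2l1* made up 3.90%, 4.34% and 6.20% of the family's summed CPM per kb of exon union in Ctrl replicates 1, 2 and 3. In TKO it made up 10.5%, 12.5% and 10.6%. Within the CP2 branch its share was 12.5%, 14.04% and 17.7% in Ctrl and 27.7%, 31.5% and 26.8% in TKO. The sum of the 5 paralogs was 76.4, 67.7 and 76.7 CPM per kb in Ctrl and 76.1, 69.8 and 75.9 CPM per kb in TKO, so the groups overlapped in it.

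**Figure D3:**
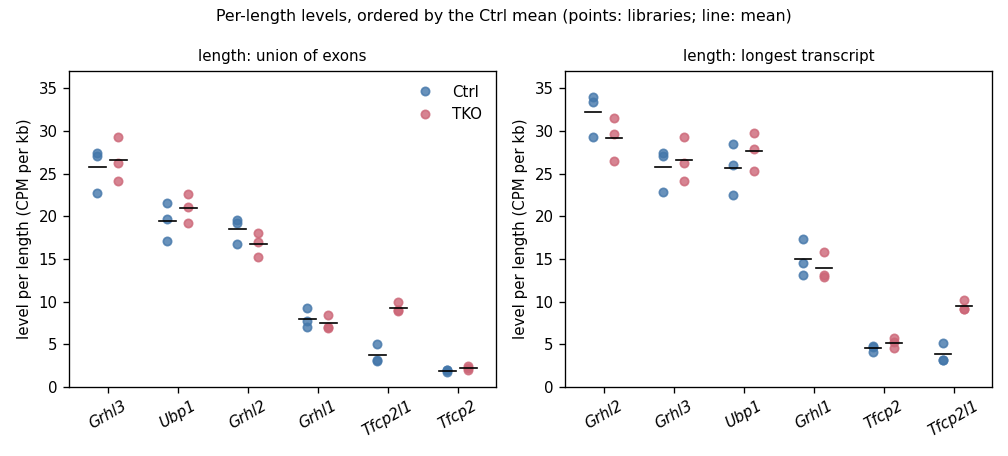
Level per length (y axis, CPM per kb, starting at 0) of the members in Ctrl (blue) and TKO (red) libraries, with group means as lines, using the union of exons (left) or the longest transcript (right). Genes are ordered by their Ctrl mean, and *Tfcp2l1* is near the low end in Ctrl under either length.

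Genes that Grainyhead factors are known to control or work with in epithelia were read from a fixed list. All 26 were tested and none was called by edgeR or DESeq2. At an unadjusted p under 0.05, 2 were higher and 1 lower, beside 4.06% and 2.02% of all tested genes. The median log2 fold change was -0.06, beside 0.01 over all tested genes, and it was -0.14 without TKO replicate 3 and 0.02 without Ctrl replicate 3. The list, which also holds *Zeb1*, *Zeb2* and *Vim*, was not split by the direction in which Grainyhead factors act. Its median therefore does not measure their activity. The groups did not overlap in 4 genes, 1 higher and 3 lower in TKO, 15.4% of the list, beside 11.5% of all tested genes. The higher gene was *Cldn4*, a tight-junction claudin, with 42.6, 39.1 and 43.0 CPM in Ctrl and 47.3, 68.1 and 55.3 CPM in TKO (log2 fold change 0.45, SE 0.16, edgeR adjusted p = 0.658). The lower genes were *Arhgef19*, a gene of the *Grhl3* planar polarity pathway (-0.40, edgeR adjusted p = 0.725), *Ovol2*, an epithelial repressor (-0.32, adjusted p = 0.958), and *Rab25*, an epithelial trafficking GTPase (-0.24, adjusted p = 0.973). *St14*, the protease matriptase, had 74.7, 65.5 and 70.7 CPM in Ctrl and 71.8, 101.3 and 98.1 CPM in TKO (0.36, adjusted p = 0.791). *Dsg1a*, a desmosomal cadherin of differentiated keratinocytes, had overlapping groups (-0.35, SE 0.18, adjusted p = 0.924). *Cdh1*, which encodes E-cadherin and was the most abundant of the list, had overlapping groups and a log2 fold change of 0.01 (SE 0.17).

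Among 15 targets and partners of CP2 factors, none was called by edgeR or DESeq2. None had an unadjusted p under 0.05 by edgeR, beside 6.08% of all tested genes. The median log2 fold change was 0.05. Without one library this median was between 0.033 without TKO replicate 3 and 0.11 without TKO replicate 1 or 2. The groups did not overlap in 1 gene, 6.67% of the list, beside 11.5% of all tested genes. It was *Rbbp4*, a histone chaperone, with the TKO libraries all below the Ctrl libraries (Ctrl mean 346.7 ± 43.2 CPM, TKO mean 296.1 ± 4.59 CPM, log2 fold change -0.23, edgeR adjusted p = 0.9998). *Tyms*, which encodes thymidylate synthase, had 77.6, 76.0 and 66.4 CPM in Ctrl and 75.7, 79.3 and 99.5 CPM in TKO (0.21, SE 0.15). *Cyp11a1*, a steroid-synthesis enzyme gene, had a log2 fold change of -0.65 (SE 0.56), and *Yy1*, a CP2 partner, 0.05 (SE 0.12). The globin genes *Hba-a1* (0.62, SE 0.34), *Hbb-bs* (0.94, SE 0.54) and *Hbb-bt* (0.63, SE 0.56), which belong to red blood cells, were lowest in Ctrl replicate 1 and highest in TKO replicate 3, and reads may be split among their near-identical copies.

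The naive pluripotency network in which *Tfcp2l1* works in embryonic stem cells was read in the same way. Of 18 genes found in the table, 10 were tested and none was called by edgeR or DESeq2. At an unadjusted p under 0.05, 1 was lower, beside 2.02% of all tested genes. The median log2 fold change was 0.03, with -0.046 without Ctrl replicate 1 and -0.043 without TKO replicate 2. *Nanog* had at most 0.199 CPM, *Pou5f1* at most 0.0404 CPM and *Esrrb* at most 0.121 CPM in any library, and these did not pass the filter. *Klf5* and *Klf4*, which keratinocytes also use, were the most abundant, with means of 472.6 ± 38.5 and 281.3 ± 22.3 CPM in Ctrl and 422.7 ± 114.6 and 277.0 ± 17.4 CPM in TKO. The receptor gene *Lifr* had a log2 fold change of 0.19 (SE 0.14), the signalling inhibitor *Socs3* 0.15 (SE 0.24), *Klf2* 0.22 (SE 0.27) and *Sall4*, at most 0.139 CPM in any library, -0.75 (SE 1.23). *Sox2* had 1.67, 1.56 and 2.66 CPM in Ctrl and 1.08, 0.525 and 1.14 CPM in TKO (-1.10, SE 0.43, edgeR adjusted p = 0.736), and *Sox2* is also a Merkel cell marker.

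Of 18 duct and collecting-duct genes, 14 were tested, and none was called by edgeR or DESeq2. None had an unadjusted p under 0.05 by edgeR, beside 6.08% of all tested genes. None had groups that did not overlap, beside 11.5%. The median log2 fold change was 0.17, and it was 0.069 without TKO replicate 3, 0.082 without Ctrl replicate 2 and 0.091 without TKO replicate 2. *Jag1*, a Notch ligand, had 194.1, 178.2 and 200.6 CPM in Ctrl and 264.5, 253.8 and 198.3 CPM in TKO (0.32, SE 0.15, edgeR adjusted p = 0.839), so TKO replicate 3 was within the Ctrl range. *Atp6v1b1*, a proton pump subunit, had 14.7, 21.4 and 11.8 CPM in Ctrl and 7.25, 8.59 and 16.2 CPM in TKO (-0.58, SE 0.32, edgeR adjusted p = 0.963), the lowest fold change of the list. The sodium channel subunits *Scnn1a* and *Scnn1b* had log2 fold changes of -0.40 (SE 0.30) and 0.32 (SE 0.39), and the anion exchanger gene *Slc4a1* 0.60 (SE 0.57). *Aqp3*, a water and glycerol channel that the epidermis also uses, had a log2 fold change of -0.26 (SE 0.14) and *Gata3* 0.07 (SE 0.18). *Foxi1*, the intercalated cell regulator, and *Aqp2*, the collecting duct water channel, had at most 0.0329 and 0.0649 CPM in any library.

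**Figure D4:**
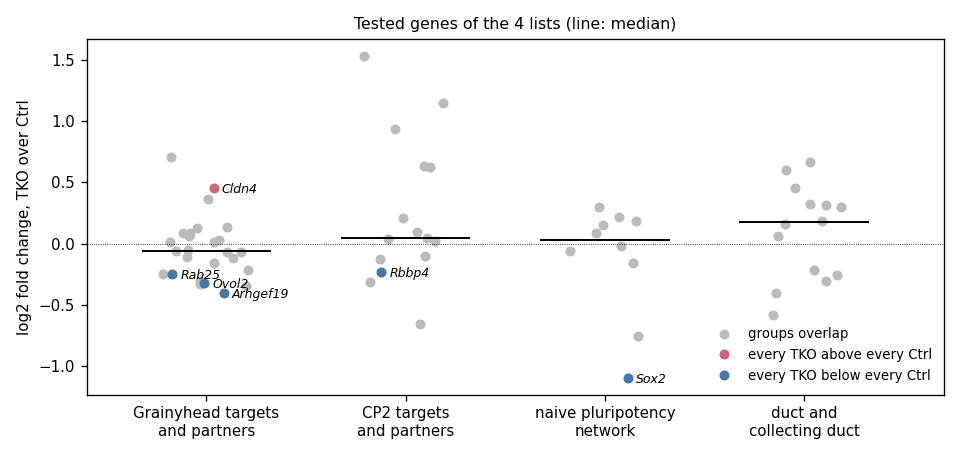
Log2 fold change, TKO over Ctrl (y axis), of each tested gene in the 4 lists, with the list median as a line. Red and blue points are genes in which the TKO libraries all lay above or all below the Ctrl libraries, and the medians lie between -0.06 and 0.17.

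Markers of other cells that a skin sort can hold were read beside *Tfcp2l1*. Skeletal muscle markers summed to 3.95, 11.4 and 7.70 CPM in Ctrl and 35.8, 37.6 and 36.5 CPM in TKO. Of 8 tested, 1 was called higher, *Myh3*, an embryonic myosin (2.61, edgeR adjusted p = 0.0211), beside 0.131% of all tested genes, and 4 were higher without overlap, beside 6.35%. The most abundant was *Ttn*, while the defining regulators *Myod1* and *Myog* had at most 0.353 and 1.66 CPM. DESeq2 called 5 higher, beside 0.936% of all tested genes. The part of muscle RNA in the difference of *Tfcp2l1* between the groups was not tested.

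Merkel cell markers summed to 21.3, 24.5 and 23.7 CPM in Ctrl and 9.73, 11.9 and 12.2 CPM in TKO. Of 7 tested, edgeR called none and DESeq2 called 2 lower (0.102% of all tested genes). At an unadjusted p under 0.05, 6 were lower (2.02%), and in these the groups did not overlap (5.11%). *Piezo2* was the most abundant, and the defining factor *Atoh1* had 0.828, 1.28 and 1.58 CPM in Ctrl and 0.144, 0.0453 and 0.477 CPM in TKO. Suprabasal keratinocyte markers summed to 19200, 19040 and 20900 CPM in Ctrl and 17050, 12910 and 13650 CPM in TKO. None of 8 tested was called by edgeR or DESeq2. At an unadjusted p under 0.05, 2 were lower, beside 2.02% of all tested genes. Of the log2 fold changes, 3 were positive and 5 negative, and the median was -0.04. The differentiation keratins *Krt1* (-0.51, edgeR adjusted p = 0.658) and *Krt10* (-0.42, adjusted p = 0.762) were lower in every TKO library, beside 5.11% of all tested genes. Their Ctrl means were 9941 and 8472 CPM. *Sbsn* (0.41, SE 0.36) and *Dsc1* (0.30, SE 0.22) had overlapping groups. Basal keratinocyte markers, led by *Krt5*, summed to 24330, 24100 and 18110 CPM in Ctrl and 15030, 16830 and 19230 CPM in TKO, and edgeR called none of 8, with 4 positive and 4 negative log2 fold changes. *Itgb4*, an integrin of hemidesmosomes, was higher in every TKO library (0.24, edgeR adjusted p = 0.9998), beside 6.35% of all tested genes. *Krt15* was lower in every TKO library (-1.18, edgeR adjusted p = 0.185), beside 5.11% of all tested genes. DESeq2 called *Krt15* lower, beside 0.102% of all tested genes. The part of these keratinocyte and Merkel cell genes in the difference of *Tfcp2l1* was not tested.

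Fibroblast markers, led by *Col1a1*, summed to 1207, 3371 and 3021 CPM in Ctrl and 2171, 2570 and 2819 CPM in TKO. Endothelial markers, led by *Cdh5*, summed to between 26.0 and 35.96 CPM in Ctrl and between 24.4 and 62.4 CPM in TKO. All 5 tested had positive log2 fold changes, with a median of 0.76. *Cdh5* (0.91, SE 0.37, edgeR adjusted p = 0.762) was higher at an unadjusted p under 0.05, beside 4.06% of all tested genes. Immune markers, led by *Csf1r*, summed to between 8.70 and 25.9 CPM and between 3.44 and 39.6 CPM. Melanocyte markers, led by *Mitf*, summed to between 7.07 and 14.4 CPM and between 12.3 and 15.6 CPM. Periderm markers, led by *Sfn*, summed to between 908.5 and 1232 CPM and between 852.9 and 1182 CPM, and hair placode and follicle markers, led by *Ptch1*, to between 1091 and 1377 CPM and between 1042 and 1640 CPM. The median log2 fold changes were -0.06 for fibroblast, 0.13 for immune, 0.38 for melanocyte, -0.235 for periderm and 0.10 for placode and follicle markers. The groups overlapped in each of these sums, and the part of these cells in the difference of *Tfcp2l1* was not tested. EdgeR called no tested gene of these 6 lists. DESeq2 called 1 melanocyte gene, *Mlana*, higher, beside 0.936% of all tested genes. It called 1 periderm gene, *Krt8*, lower, beside 0.102%, and *Krt8* is also a Merkel cell marker.

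The genes next to *Tfcp2l1* on chromosome 1 were read for the same comparison. Among the 4 nearest tested protein-coding genes on each side, none was called by edgeR or DESeq2. None had an unadjusted p under 0.05 by edgeR, beside 6.08% of all tested genes. None had groups that did not overlap, beside 11.5%. The median log2 fold change was 0.10. *Clasp1*, which encodes a microtubule-binding protein and lies 15.02 kb away on one side, had 191.6, 173.3 and 202.2 CPM in Ctrl and 210.9, 195.8 and 209.8 CPM in TKO (0.12, SE 0.13). *Gli2*, a Hedgehog effector 148.9 kb away on the other side, had 270.1, 210.6 and 299.0 CPM in Ctrl and 225.9, 217.3 and 378.0 CPM in TKO (0.07, SE 0.23). The others were *Nifk* (0.05), *Tsn* (0.01), *Inhbb* (-0.30), *Ralb* (0.12), *Tmem185b* (0.15) and, at 6763 kb, *Dsel* (0.12). Within 1000 kb 13 genes were tested and none was called. The lncRNA Gm27184, named after its values were seen, was higher in every TKO library, at 0.226 to 0.280 CPM against 0.0310 to 0.139 CPM (1.53, SE 0.82, edgeR adjusted p = 0.924). It was the only gene of the 13 whose groups did not overlap, beside 11.5% of all tested genes.

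**Figure D5:**
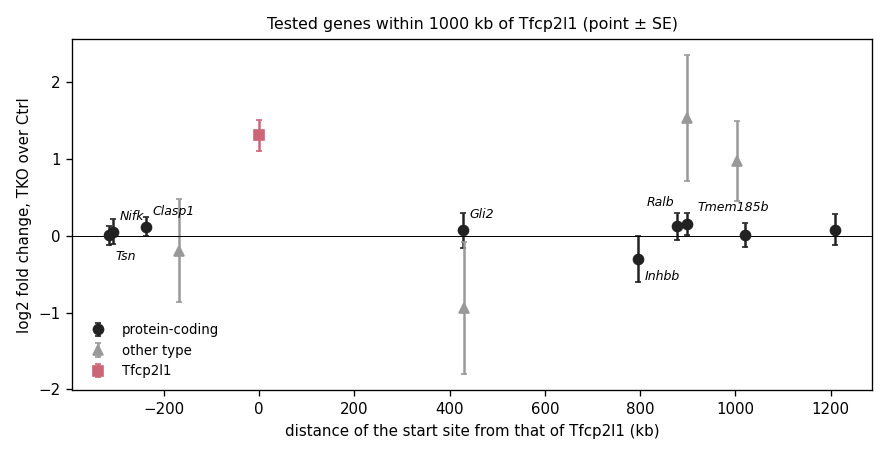
Log2 fold change ± SE, TKO over Ctrl (y axis), of tested genes whose bodies lie within 1000 kb of *Tfcp2l1*, against the distance between start sites in kb (x axis). The protein-coding neighbours lie between -0.30 and 0.15, *Tfcp2l1* at 1.31, and the 4 low-level genes of other types at 1.53, 0.97, -0.19 and -0.94.

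The genes whose pattern was most like that of *Tfcp2l1* were the 5 with the highest Pearson correlation of log2 CPM over the 6 libraries, among 12297 protein-coding genes with a mean of at least 1 CPM. The points share their group, so a gene that is higher in TKO tends to a high correlation and a gene that is lower to a strongly negative one. Of these genes, 63 had a positive and 48 a negative correlation of more than 0.95 in size. The 5 were *Enc1* (0.990), an actin-binding Kelch protein gene, *Cobll1* (0.988), *Shroom4* (0.986), *Piwil1* (0.984), which encodes a germline piRNA-binding protein, and *Atf7ip* (0.982). *Atf7ip*, whose product binds Setdb1, had 166.7, 177.0 and 219.2 CPM in Ctrl and 360.0, 468.6 and 385.1 CPM in TKO. *Enc1* had 27.6, 23.8 and 36.8 CPM in Ctrl and 52.5, 55.2 and 50.1 CPM in TKO, and *Piwil1* 0.656, 0.526 and 1.08 CPM and 2.18, 2.71 and 1.78 CPM. In all 5, as in *Tfcp2l1*, Ctrl replicate 3 was the highest of its group. Over the same libraries the correlation of *Tfcp2l1* was -0.86 with *Setdb1*, 0.72 with *Tfcp2*, 0.57 with *Ubp1*, 0.24 with *Grhl3*, -0.09 with *Grhl1* and -0.72 with *Grhl2*.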

How the data were processed

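Bulk RNA-seq of sorted basal keratinocytes from 3 Ctrl and 3 TKO samples was analysed. The authors trimmed reads with fastp, aligned them with STAR and deposited raw counts for each Ensembl gene in each library, without normalization. The study's methods name GRCm39 and the submitters' processing notes list GRCm38. The counting program, its annotation and its strand setting are not given in the sources used here. Of 55536 genes, 51477 matched GENCODE vM39, which gave symbols, positions and exon lengths.

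Genes were kept by filterByExpr (minimum count 10, minimum total 15), which left 20622, and compared in R 4.3.3 with edgeR 4.0.16 (TMM, glmQLFit robust, glmQLFTest), all 6 libraries and no covariate. Genes with a Benjamini-Hochberg adjusted p under 0.05 were called where the log2 fold change was beyond 1 in either direction. Intervals are 95% intervals of the same fit. The common biological coefficient of variation was 36.5%. Scripts were tested on simulated data. Members, gene lists and the rule for named genes were chosen with earlier results of these data known. That rule took the members, the targeted methyltransferases, from each list the 6 genes with the smallest p and the 2 most abundant in Ctrl, the 4 nearest tested protein-coding genes on each side of *Tfcp2l1*, and the 5 genes most like it. Some genes it took from the lists of cell markers enter the text only in counts, medians and sums. Other genes are named as markers, as defining genes of a list or after their values were seen. *Tdgf1* and *Lor* were not matched by symbol. The alternatives were DESeq2 1.42.0, RLE size factors, other low-count filters, the replicate block, the sex letter as a factor, the 4 libraries marked M alone, glmQLFit without robust estimation, no fold threshold, each library left out, another gene length and Spearman correlation. Figures were drawn with matplotlib 3.10.9.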

Additional observations from a re-analysis of the deposited data

How the results depend on the processing

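The log2 fold change of *Tfcp2l1* was between 1.14 and 1.59 over 14 alternatives, and the 5 paralogs were not called in any, with edgeR or DESeq2 adjusted p between 0.606 and 1.0. The values of *Grhl1* without one library ranged from -0.21 to 0.0115, with 0.0115 without Ctrl replicate 3, and those of *Grhl3* from -0.038 to 0.11, with -0.038 without Ctrl replicate 2 and -0.033 without TKO replicate 3. The 27 genes called higher became 193 with DESeq2, 213 with no low-count filter, 9 with at least 10 counts in every library and 10 with the 4 libraries marked M alone. They ranged from 7 without Ctrl replicate 2 to 65 without TKO replicate 3, with 8 without Ctrl replicate 1 or 3 and 15 without TKO replicate 2. The 0 called lower became 21 with DESeq2 and 22 with no filter, and ranged from 0 to 16, the latter without TKO replicate 3. The fit with a replicate block called 44 higher and 1 lower, and *Tfcp2l1* had a log2 fold change of 1.35. No label states that equal numbers share a litter or day. The library names do number the Ctrl and TKO libraries of each replicate consecutively, and the study used Cre-negative littermates as controls unless it said otherwise. Deviations from group means correlated at 0.168, 0.0873 and 0.127 for the same numbers, and every sample correlated best with its own number. These are hints of pairing, which the fit without a block ignores. With the M libraries alone the medians of the naive pluripotency list and of the 8 neighbours were -0.094 and -0.0072. With the longest transcript as length the Ctrl levels were 15.02 (*Grhl1*), 32.2 (*Grhl2*), 4.52 (*Tfcp2*) and 25.7 (*Ubp1*) CPM per kb. Spearman correlation kept 2 of the 5 genes most like *Tfcp2l1*. The cause of these shifts was not tested. The medians of the CP2 list and of the 8 neighbours without one library ranged from 0.033 to 0.11 and from 0.035 to 0.10.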
